A study of Mus musculus with 12 samples.

Results

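The cytosolic ribosomal proteins are the protein subunits that, with the ribosomal RNAs, make up the 60S large and the 40S small subunit of the ribosome. They were taken as every row of the deposited table named RPL or RPS plus a number (with A, X, Y or L after it), and RPLP0, RPLP1, RPLP2 and RPSA. This gave 58 of 18090 rows, 32 of the large and 26 of the small subunit. All 58 rows matched a mouse gene, 57 by current symbol and 1 by synonym (RPS3A, now Rps3a1).

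Ribosomal protein transcripts are among the most abundant of any growing cell. Many begin with a run of C and T at the 5′ end, the terminal oligopyrimidine tract, through which mTORC1 signalling adjusts their translation together. Their genes lie scattered over the genome, and each protein is needed in 1 copy per ribosome, apart from the P1 and P2 proteins of the stalk, so that synthesis of the set is coordinated. In the intestine the dividing cells of the epithelium need a steady supply of new ribosomes.

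Total RNA of proximal small intestine, extracted from an entire piece of the organ, was hybridised to 1-colour Illumina arrays for 12 mice of a mixed C57/BL6;129Ola background labelled P6. The 6 mutant mice are described as villinCre;Shp2fl conditional mutants, in which Cre recombinase under the villin promoter, active in the intestinal epithelium, acts on a floxed Shp2 allele. Shp2 is a tyrosine phosphatase that passes growth factor signals to RAS and ERK, and its gene is now named Ptpn11. The other 6 mice are labelled control, and their genotype beyond that, the sex of the mice and any litter are not stated in the labels. The epithelium was targeted but the whole wall was read, so fewer cells of a type and less RNA per cell cannot be told apart.

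Group means are deposited intensities in arbitrary units, as mean ± SD with n = 6 mice per group. Log2 differences are mutant minus control with their SE from limma, after an offset of 50, fitted over all 18090 rows with Benjamini-Hochberg adjustment, and a row was called at an adjusted p below 0.05. Deposited values ran below 0, and the size of the most negative, 27.8, served as a noise limit. A pair of arrays stood apart: control 4 and mutant 1 carried pancreatic acinar transcripts, with a summed intensity over 18 acinar genes of 107844 and 62406, against 2836 to 16087 in the other 5 controls and 4177 to 8855 in the other 5 mutants. Counts of called rows without both arrays are given for the ribosomal proteins and for each gene list. In that fit 4.01% of all rows were called higher and 3.69% lower.

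The row of the targeted gene did not check the genotypes. Ptpn11 read 1129, 1245, 1480, 1228, 1264 and 1383 in controls 1 to 6 and 1492, 1410, 1641, 1410, 1388 and 1646 in mutants 1 to 6. It was thus not lower in the libraries labelled mutant, whose values overlapped with those labelled control (log2 difference 0.21, SE 0.07, limma adjusted p = 0.0763). No source used here gives the place of its probe relative to the floxed part, and a probe outside that part would check nothing. Control and mutant below therefore mean the libraries so labelled, and every direction rests on those labels.

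The start regions of 4 members are shown first, as 1 member that rose and 1 that stayed near a difference of 0 for each subunit, because ribosomal protein promoters share a sequence feature that the row names do not use. The sequences are from RefSeq, build GRCm38.p6, and run from 200 bases before the annotated start to the first 20 transcribed bases. Capitals mark CGGAAG, or CTTCCG on the reverse strand, the core recognised by ETS-family transcription factors such as GABP.
Rpl12, large subunit, higher in mutants (chr2:32961512-32961731, plus strand): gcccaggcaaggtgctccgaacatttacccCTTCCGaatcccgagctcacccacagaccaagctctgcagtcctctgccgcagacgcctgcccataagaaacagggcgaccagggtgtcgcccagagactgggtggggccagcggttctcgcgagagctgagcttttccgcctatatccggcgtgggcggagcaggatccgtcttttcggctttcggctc
Rpl41, large subunit, not called (chr10:128549149-128549368, minus strand): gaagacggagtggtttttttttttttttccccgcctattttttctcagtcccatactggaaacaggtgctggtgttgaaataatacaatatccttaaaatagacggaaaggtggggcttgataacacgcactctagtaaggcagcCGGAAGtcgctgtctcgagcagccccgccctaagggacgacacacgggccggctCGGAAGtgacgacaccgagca
Rps6, small subunit, higher in mutants (chr4:86857348-86857567, minus strand): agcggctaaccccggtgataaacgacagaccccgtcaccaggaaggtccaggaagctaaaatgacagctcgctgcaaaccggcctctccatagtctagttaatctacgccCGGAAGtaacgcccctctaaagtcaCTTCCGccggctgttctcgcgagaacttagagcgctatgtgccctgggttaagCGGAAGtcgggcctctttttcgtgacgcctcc
Rps12, small subunit, not called (chr10:23787190-23787409, minus strand): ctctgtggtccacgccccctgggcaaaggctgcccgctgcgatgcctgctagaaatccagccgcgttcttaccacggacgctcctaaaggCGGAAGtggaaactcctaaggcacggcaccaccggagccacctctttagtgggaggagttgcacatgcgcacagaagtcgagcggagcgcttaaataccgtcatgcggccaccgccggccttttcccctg

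Of the 58 members 47 had a RefSeq start region, 56 sequences in all, since some genes have several starts. CGGAAG on either strand was found within 250 bases before to 50 after the start in 37 of the 56 (66.1%). The same 6 letters were found in 16.9% of all 32851 start regions in the table, and in 31.3% of the 2118 of other genes whose row had a mean intensity of 1000 or more. It was in 63.3% of 30 large and 69.2% of 26 small subunit sequences. CTTTC on the sense strand, a short form of the pyrimidine tract, lay within 15 bases before to 25 after the start in 13 of 56 (23.2%), against 5.28% of all regions and 4.44% of those of the other bright rows, and its reverse complement in 3 of 56. This motif was in 10 of the 30 large subunit sequences (33.3%) and in 3 of the 26 small subunit ones (11.5%). TATAAA on either strand was in 4 of 56 (7.14%), against 13.6% of all and 8.50% of those of the other bright rows. By response, CGGAAG was in 9 of 14 sequences of called members (64.3%) and in 24 of 34 of members above the noise limit that were not called (70.6%). Sense-strand CTTTC was in 2 of the same 14 (14.3%) and 9 of the 34 (26.5%), and TATAAA in 0 of the 14 and 4 of the 34 (11.8%), differences that were not tested. No motif contains another, and a match is a description of the letters only. By gene order in RefSeq, 58 members lay on 17 chromosomes, with 13 of them on 1 chromosome. Some lay close together, such as Rps2 and Rpl3l with 1 protein-coding gene between them and Rpl41 and Rps26 with 2. Rpl6 is the direct neighbour of Ptpn11 itself.

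Ribosomal protein transcripts were higher in the mutant intestine, by small steps. In the mutants 15 of 58 rows rose and none fell (limma, adjusted p below 0.05), or 25.9% of them. Of all rows 9.19% were called, 4.71% higher and 4.48% lower. At an unadjusted p below 0.05, 26 members were higher and 1, Rps3a1, lower. The median log2 difference of the 58 was 0.13, against -0.0068 over all rows, and 47 of 58 lay above 0 (81.0%, against 47.3% of all rows). The largest rise was 1.47-fold, apart from 1 dim row. Since bright rows are called more readily, the 44 members with a mean of 1000 or more were also set beside all 2613 such rows: 14 of the 44 rose (31.8%), against 8.88% of these rows called higher and 10.4% lower. This was 5 of the 44 (11.4%) with control 4 and mutant 1 left out, against 7.54% of these rows. Without control 4 and mutant 1, 6 of 58 rose (10.3%, against 4.01% of all rows) and the median difference was 0.10. Leaving out 1 mouse at a time gave 7 to 19 calls, every one of them higher in mutants.

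**Figure D1:**
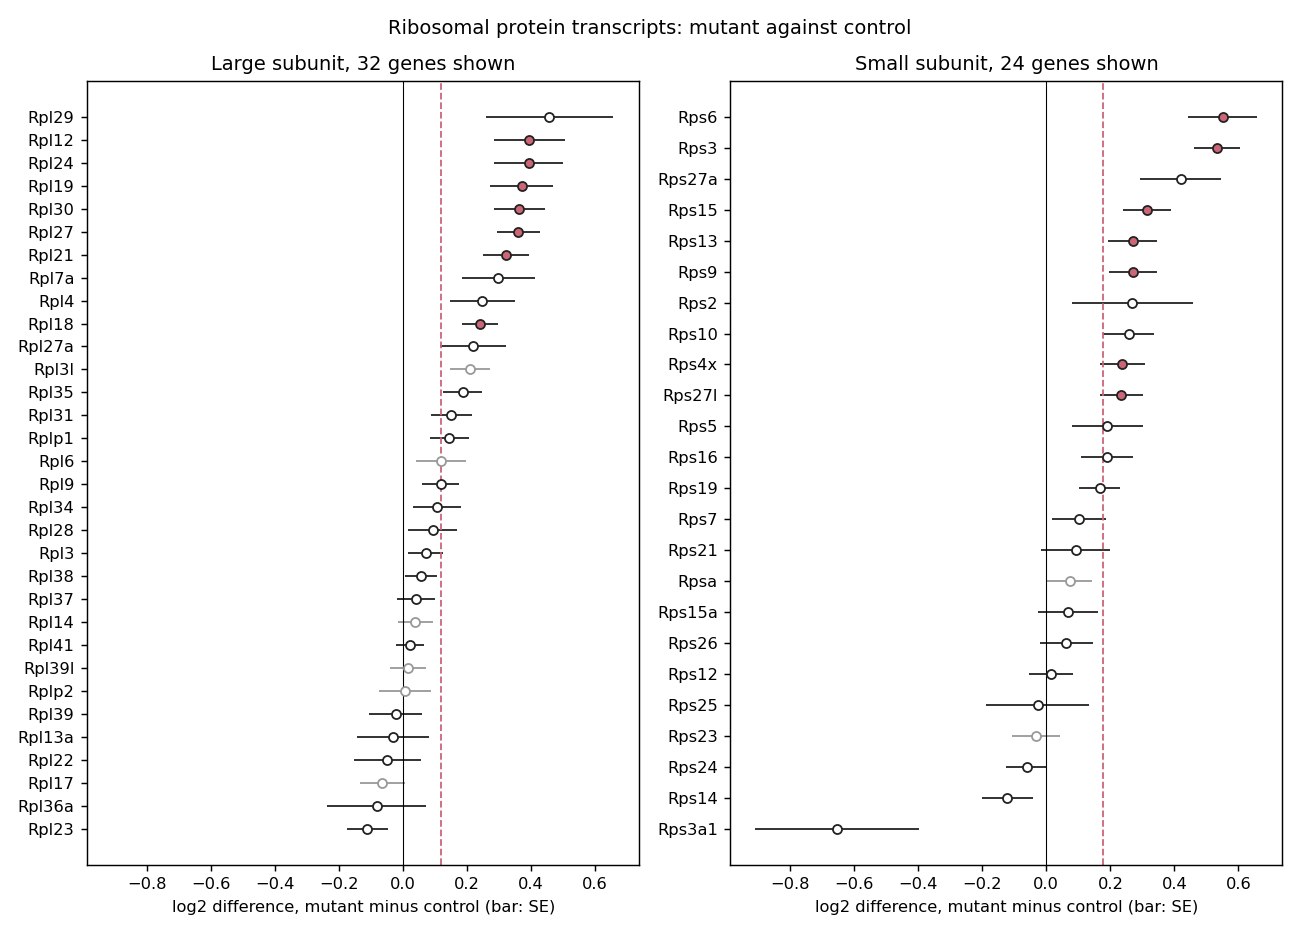
Log2 difference, mutant minus control, of 56 of the 58 ribosomal protein rows by subunit, with bars for the SE. Filled points passed the limma threshold, grey points had both group means within the noise limit, and the dashed line is the median of the subunit (0.12 for the large and 0.18 for the small subunit). The filled points all lie to the right of 0, and Rps3a1 lies far to the left with a wide bar.

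Not all 58 rows carried a signal. In 8 of them, Rpl3l, Rpl6, Rpl14, Rpl17, Rpl39l, Rplp2, Rpsa and Rps23, every mouse lay within the noise limit. Rpl3l, the paralog of Rpl3 known from striated muscle, and Rpl39l, known from testis, belong to these. Rpl6, Rpl14, Rpl17, Rplp2, Rpsa and Rps23 are core subunits that every ribosome-making cell uses, so that their rows say nothing of those transcripts. Rpl3l had the difference closest to the threshold (0.21, SE 0.06, adjusted p = 0.0528), with both means within the limit, and passed it without control 1 or mutant 4, with an offset of 16, with array weights, with trend and robust variances and with a replicate block. The other 50 rows had a median difference of 0.18, and 15 of them (30.0%) rose, against 7.99% of the 10202 rows above the limit called higher and 7.74% lower. Without control 4 and mutant 1, 6 of the 50 (12%) rose, against 6.87% of these rows. At the other end, Rplp1 and Rpl41 lay at the top of the scale. Their 24 values, from 32434 upwards, took 11 different numbers, so that several mice share the same value there.

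Among the small subunit rows, Rps3 gave the lowest adjusted p. Its protein sits where mRNA enters the 40S subunit. Rps3 read 4948, 5827, 5071, 5014, 5074 and 4955 in controls 1 to 6 and 7770, 6651, 8465, 6714, 8431 and 7132 in mutants 1 to 6. Every mutant lay above every control, and control 2 stood above the other 5 controls, which were nearly equal. The means were 5148 ± 337 and 7527 ± 817 (n = 6 each), a 1.46-fold rise with a log2 difference of 0.53 (SE 0.07) and an adjusted p = 0.000459 by limma. Permuting the mice over the 924 possible assignments (exact, two-sided) gave 0.00216, the smallest p possible here.

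Rps6, the substrate of the S6 kinases downstream of mTORC1 and ERK signalling, rose by a similar amount. It read 8083, 6183, 6970, 6689, 5332 and 5338 in controls 1 to 6, and 9781, 8778, 11842, 8969, 9568 and 7948 in mutants 1 to 6. The groups touched, since control 1 exceeded mutant 6. Mutant 3 was far above the rest. The means were 6432 ± 1054 and 9481 ± 1325, 1.47-fold, with a log2 difference of 0.55 (SE 0.11, limma adjusted p = 0.00568, exact permutation p = 0.00433). Rps15, a protein of the 40S head, read 4298 to 5533 in controls and 5764 to 6987 in mutants. Its log2 difference was 0.31 (SE 0.08, adjusted p = 0.0175), with every mutant above every control.

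Rps9, Rps13, Rps4x and Rps27l rose less, by 0.23 to 0.27 on the log2 scale. Rps9 went from 13235 ± 1070 to 15997 ± 1453 and Rps13 from 8864 ± 851 to 10742 ± 942, both with all 6 mutants above the control mean. Rps4x, an X-linked gene, went from 19992 ± 1414 to 23640 ± 2187 (adjusted p = 0.0487), with mutant 2 at 19791 under the control mean. Rps27l, a paralog of Rps27 that p53 induces, went from 12514 ± 1011 to 14838 ± 1206 (adjusted p = 0.0439). In all 4 rows the groups overlapped, and each of the 4 calls ended in at least 6 of the 12 fits that left out 1 mouse and in the fit without control 4 and mutant 1. Rps27a, which encodes ubiquitin fused to a 40S protein, read 773.9 ± 187.1 and 1036 ± 109 and did not pass (log2 difference 0.42, SE 0.13, adjusted p = 0.0548). It passed without control 1 or control 4, and with dim rows left out, with array weights or with trend and robust variances.

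Among the large subunit rows, Rpl27 and Rpl30 separated the groups. Rpl27 read 11212, 10066, 9078, 9254, 8286 and 8792 in controls 1 to 6 and 12331, 12400, 12362, 11804, 12173 and 11654 in mutants 1 to 6. The mutants lay close together, above every control. The means were 9448 ± 1044 and 12121 ± 316, 1.28-fold, with a log2 difference of 0.36 (SE 0.07, limma adjusted p = 0.00417, exact permutation p = 0.00216). Rpl30 averaged 1665 ± 204 in controls and 2145 ± 171 in mutants (0.36 on the log2 scale, SE 0.08, adjusted p = 0.0119), with the highest control, control 4 at 1963, just under the lowest mutant, mutant 6 at 1984. Rpl18 also separated the groups, at 11342 ± 708 and 13532 ± 748 (0.24 on the log2 scale, SE 0.06, adjusted p = 0.0154). The calls of Rps15 and Rpl18 ended without control 4 and mutant 1. It lies outside the rule for named genes and was chosen after its values were seen. In all, 5 of 58 members (Rps3, Rps15, Rpl18, Rpl27 and Rpl30) had every mutant above every control, where 2.48% of all rows did, and no member had every mutant below every control, where 2.21% of all rows did. The count was again 5 with control 4 and mutant 1 left out (8.62%), against 3.77% of all rows. Among rows with a mean of 1000 or more, 5 of 44 members had every mutant above every control, as had 134 of all 2613. With both arrays left out the shares of these bright rows were 11.4% of members and 7.5% of all.

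**Figure D2:**
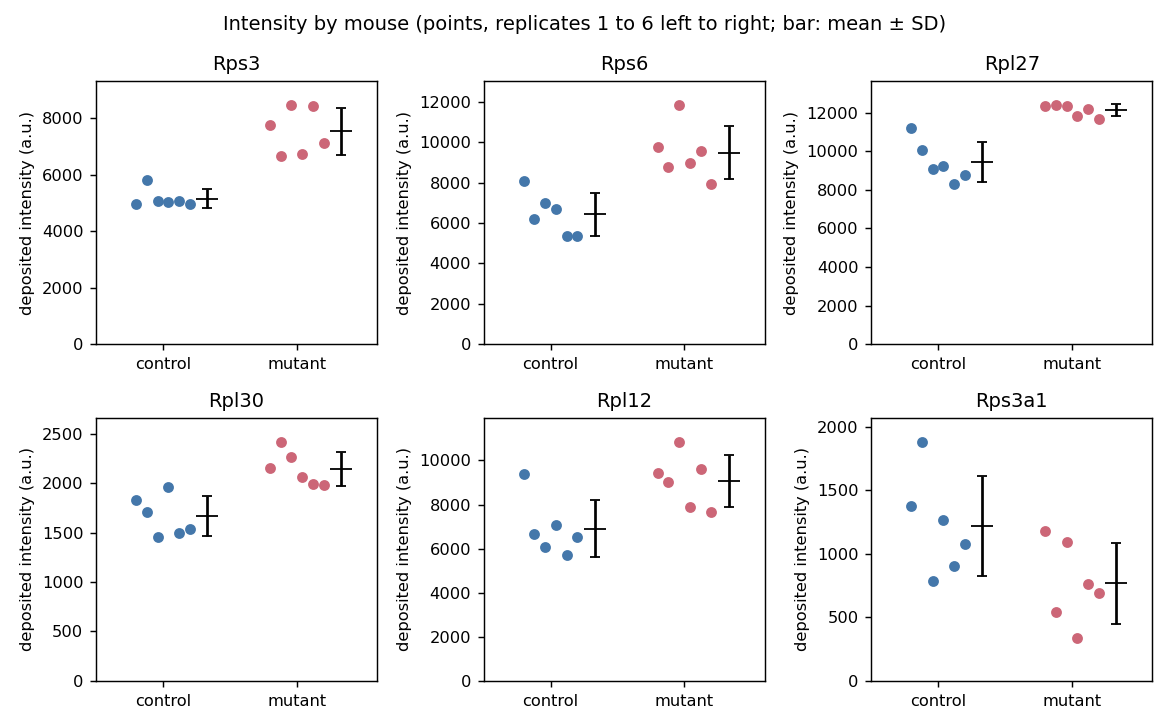
Deposited intensity (arbitrary units, axes from 0) of 6 ribosomal protein rows in each mouse, with replicates 1 to 6 from left to right in each group and bars for the mean ± SD. Rps3, Rpl27 and Rpl30 show no overlap between controls and mutants, Rps6 and Rpl12 overlap through control 1, and Rps3a1 is lower in value in mutants with wide spread in both groups.

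Rpl12, which sits at the base of the stalk, had overlapping groups. It read 9373, 6678, 6073, 7064, 5714 and 6526 in controls 1 to 6 and 9450, 9007, 10850, 7865, 9609 and 7678 in mutants 1 to 6. Control 1 stood apart from the other controls and among the mutants. The log2 difference was 0.39 (SE 0.11, limma adjusted p = 0.0385). Rpl24 and Rpl19, both part of bridges between the subunits, went from 3919 ± 614 to 5167 ± 664 (adjusted p = 0.0356) and from 2886 ± 410 to 3778 ± 484 (0.0298). The calls of Rpl12, Rpl24 and Rpl19 ended in 9, 8 and 8 of the 12 fits that left out 1 mouse. Rpl21 was dim, at 54.0 ± 11.1 and 84.4 ± 13.4, with control 6 at 74.0 above mutant 3 at 64.5. Its fold of means was 1.56, and its log2 difference of 0.32 (SE 0.07, adjusted p = 0.0131) is shrunken by the offset.

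Several large subunit proteins with particular roles did not pass. Rplp1, one of the acidic stalk proteins that recruit elongation factors, read 35233 ± 1640 and 38426 ± 3135 at the top of the scale (log2 difference 0.14, SE 0.06, adjusted p = 0.173), and passed without mutant 4 (0.0459). Rpl3, which reaches into the peptidyl transferase centre, read 13910 ± 711 and 14776 ± 956 (adjusted p = 0.534). Rpl38, needed in the mouse embryo for translation of Hox mRNAs, read 15264 ± 1014 and 15808 ± 428 (0.596). Rpl22, which is needed for T cell development in mice, read 1421 ± 177 and 1376 ± 237 (0.863). Among small subunit proteins, Rps19, whose human gene is mutated in Diamond-Blackfan anaemia, read 8921.5 ± 528.4 and 10069 ± 817 (0.139) and passed without mutant 4 (0.0408). Rps25, known for its part in internal ribosome entry, read 3422 ± 829 and 3364 ± 721 (0.959).

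The member with the lowest difference was Rps3a1, chosen here after its values were seen. It read 1378, 1882, 786.4, 1267, 903.6 and 1074 in controls 1 to 6 and 1179, 545.0, 1092, 338.6, 760.6 and 691.5 in mutants 1 to 6. The groups overlapped widely, though no mutant exceeded the control mean. The log2 difference of -0.65 (SE 0.26) did not pass (limma adjusted p = 0.142). Its within-group SD of 0.52 on the log2 scale compares with a median of 0.13 over the 58 members. Rpl29 (log2 difference 0.46, SE 0.20, adjusted p = 0.19) and Rps2 (0.27, SE 0.19, 0.481), both also chosen after their values were seen, did not pass either and had within-group SDs of 0.40 and 0.38. Ribosomal protein genes have many processed pseudogenes, of which the RefSeq table names 318, so that single rows of this family are uncertain as to the copy they read.

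Of the 50 rows above the noise limit 35 were not called, 26 with a difference above 0 and 9 below. In 7 of the 35 every mutant lay above the control mean. Closest to the threshold after Rps27a were Rps10, at 6878 and 8247 (adjusted p = 0.0595), and Rpl35, at 17168 and 19635 (0.0752), named after their values were seen. Below 0, apart from Rps3a1, the differences were small, the next being Rps14, at 17626 and 16501 (-0.12, 0.439), and Rpl23, at 10482 and 9688 (-0.11, 0.354). Rpl41 had a log2 difference of 0.02 while its mean on the linear scale was slightly lower in mutants, so that its direction is not settled.

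**Figure D3:**
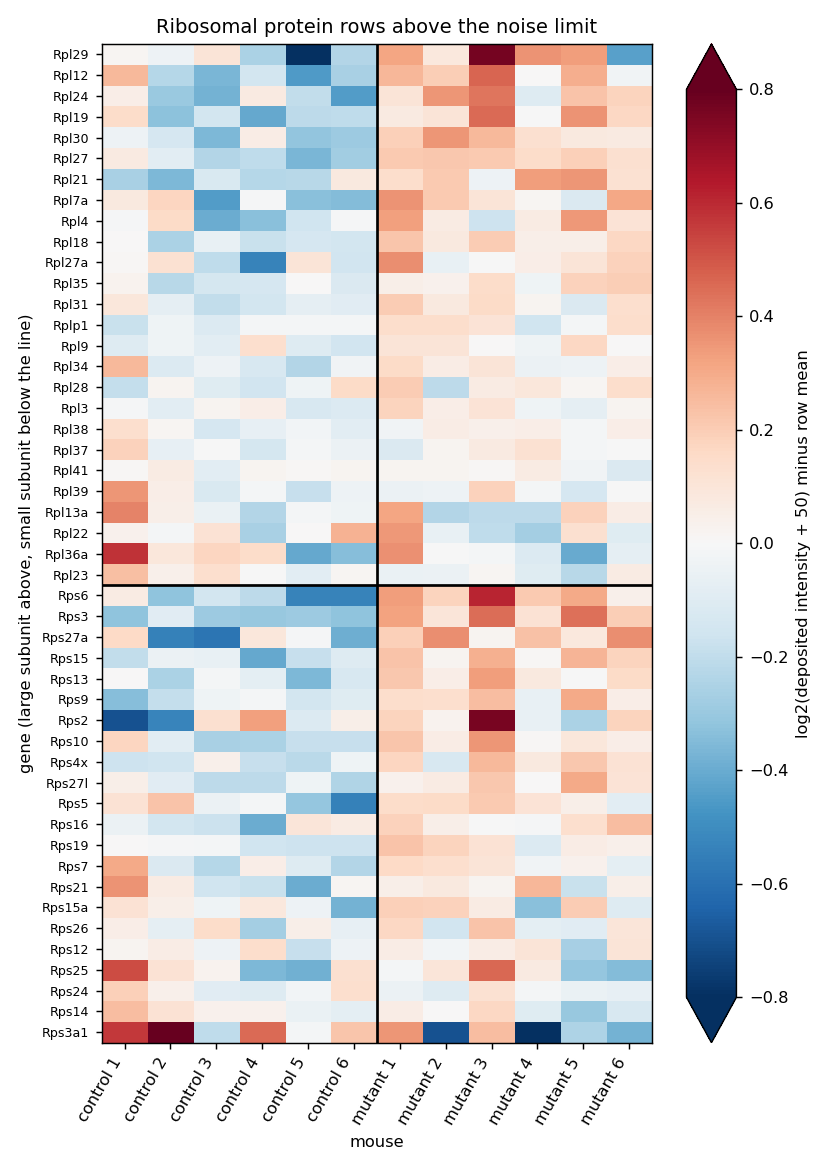
Log2 of the deposited intensity plus 50, minus the row mean, for 48 of the 50 ribosomal protein rows above the noise limit (rows, by subunit and then by log2 difference) in each of the 12 mice (columns). Most rows are higher in the mutants, while control 1 is higher than the other controls in many rows, and the 9 rows with a difference below 0, Rps3a1 the lowest, stand at the foot of each subunit.

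Mice of 1 group differed from each other across the whole set. For each mouse the median, over the 50 rows above the noise limit, of the log2 value minus the row mean was taken. It was 0.055, -0.064, -0.086, -0.14, -0.13 and -0.086 in controls 1 to 6 and 0.16, 0.061, 0.14, 0.0035, 0.066 and 0.067 in mutants 1 to 6. Control 1 lay among the mutants and mutant 4 at the lower end of its group, so the groups overlapped. In control 1, 35 of 50 rows exceeded their row mean, against 5 to 19 in the other controls and 27 to 43 in the mutants. The 2 arrays with acinar transcripts lay at opposite ends, control 4 as the lowest and mutant 1 as the highest of all mice, and the part of these transcripts in the result was not tested beyond the counts without both arrays.

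Large and small subunit rows were compared because a ribosome needs both in equal number. Of 32 large subunit rows 7 rose (21.9%) and of 26 small subunit rows 8 rose (30.8%), with none lower in either, against 4.71% of all rows called higher. The median log2 differences were 0.12 and 0.18. Above the noise limit 7 of 26 large (26.9%) and 8 of 24 small subunit rows (33.3%) rose, against 7.99% of all such rows. The medians there were 0.15 and 0.19. Within each mouse the subunits were then set against each other, over the rows above the noise limit. The large minus the small subunit median shift was -0.0021 ± 0.037 over the 6 controls and -0.014 ± 0.044 over the 6 mutants, so the 2 group means differed by less than the SD within a group. Mutant 3 had the widest gap, with 0.11 for the large and 0.21 for the small subunit. The difference between the subunit medians over all member rows, those within the noise limit among them, was -0.060. It changed sign to 0.013 without control 6. In the fit without control 4 and mutant 1, 4 large (12.5%) and 2 small subunit rows (7.69%) rose.

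**Figure D4:**
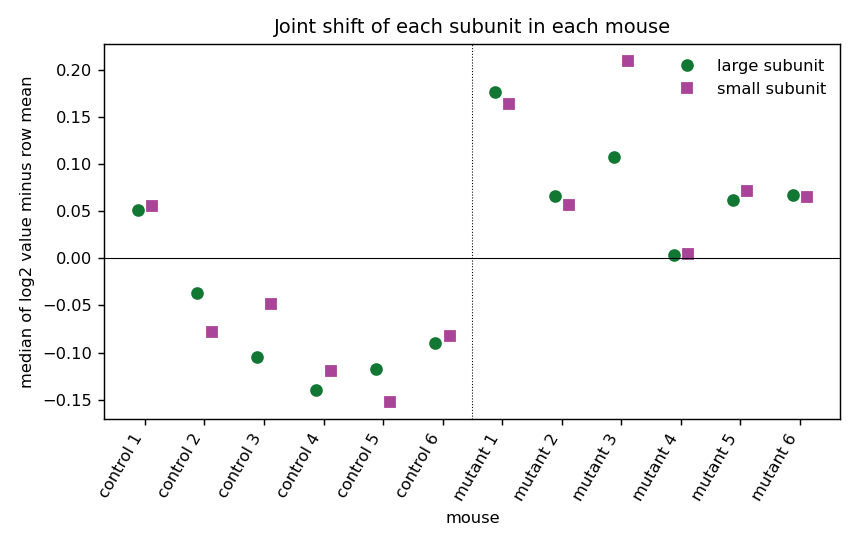
Median over large subunit rows (circles) and over small subunit rows (squares) of the log2 value minus the row mean, for each mouse, over rows above the noise limit. The gap between the subunits is widest in mutant 3 (-0.10) and next in control 3 (-0.057), control 1 lies at the level of the mutants, and mutant 4 lies near 0.

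Genes close to the ribosomal proteins but outside the row rule were few. Among 4 measured paralogs and associated genes 1 was called higher (25%, against 4.71% of all rows) and none lower. This was Rpl7l1, a Rpl7 paralog, which rose from 434.1 ± 77.8 to 581.9 ± 47.6 (limma adjusted p = 0.0181). Rpl22l1, the paralog of Rpl22, read 68.0 ± 21.5 and 56.1 ± 18.6 (0.616). Rpl36al read 12148 ± 1489 and 14220 ± 1178 (0.153), and Gnb2l1 84.3 ± 21.2 and 77.25 ± 13.6 (0.816).

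Some transcripts of the machinery that builds ribosomes were also higher. Of 34 ribosome biogenesis genes 11 rose and none fell (32.4%, against 4.71% of all rows called higher), while 23 did not pass. At an unadjusted p below 0.05, 13 were higher and 2 lower, and 27 of 34 differences lay above 0, with a median of 0.16. In 6 of the 34 both means lay within the noise limit. Over all 18090 rows this held for 7888, and of the 10202 rows above the limit 7.99% were called higher. The shares of the initiation and elongation lists below stand beside the same 4.71% and 7.99%. Nop56, listed as Nol5a, a core protein of box C/D snoRNPs, rose from 250.4 ± 50.3 to 483.2 ± 125.1 (0.77 on the log2 scale, SE 0.14, adjusted p = 0.00347). Nhp2, listed as Nola2, a box H/ACA snoRNP protein, rose from 934.3 ± 161.5 to 1401 ± 64, and Rcl1, of 18S rRNA processing, from 301.5 ± 52.0 to 485.6 ± 69.7. The per-mouse median shift of this list ran from -0.22 to -0.0031 in controls and from 0.043 to 0.11 in mutants, with no overlap. Of 24 initiation factors and related genes, Eif4ebp1 and Eif4ebp2 among the latter, 7 rose and none fell (29.2%). Among the 7, Eif3b, a scaffold subunit of eIF3, rose from 367.4 ± 61.0 to 633.4 ± 116.6 and the hypusinated factor Eif5a from 1950 ± 264 to 2924 ± 375. Eif2b1, a subunit of the eIF2 exchange factor, rose from 502.5 ± 58.6 to 696.6 ± 107.8. Of 13 elongation factors and other transcripts with an oligopyrimidine tract 5 rose (38.5%), with all 13 differences above 0. Of the 13, Tpt1 and Eif3h had both means within the noise limit, and the difference of Naca was 0.0073. The eEF1 subunits Eef1b2 and Eef1g rose from 2601 ± 312 to 3265 ± 223 and from 12095 ± 1339 to 14873 ± 1237, and Npm1, a nucleolar chaperone, from 10182 ± 1459 to 12346 ± 544. The elongation count depended on the setting. It was 1 without control 4 and mutant 1, 2 without background correction, with an offset of 16 or with a replicate block, and 1 to 5 leaving out 1 mouse, falling by more than 1.5 times without control 1, 3, 5 or 6 or mutant 1, 3, 5 or 6. With both arrays left out the biogenesis count was 9 (26.5%), and 9 genes of the initiation list were higher (37.5%) and 1 lower. In that fit 6.87% of all rows above the noise limit were called higher. Leaving out 1 mouse gave 7 to 12 biogenesis calls, lowest without control 5 or mutant 3, and 6 to 8 initiation calls. The per-mouse median shift of the initiation list ran from -0.19 to -0.021 in controls and from 0.041 to 0.14 in mutants, also with no overlap. That of the elongation list ran from -0.15 to 0.018 and from 0.016 to 0.18, with overlap.

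Mitochondrial ribosomal proteins, which serve the separate ribosome of the mitochondrion, had few calls but mostly positive differences. Of 72 rows 4 rose and none fell (5.56%, against 4.71% of all rows), with a median difference of 0.040. At an unadjusted p below 0.05, 18 were higher and none lower, and 50 of 72 differences lay above 0 (69.4%, against 47.3% of all rows). In 5 of the 72 both means lay within the noise limit. Of the 10202 rows above that limit 7.99% were called higher, more than the 5.56% of this list. Mrpl11 rose from 627.1 ± 78.3 to 847.4 ± 125.3, Mrpl3 from 813.9 ± 103.1 to 997.5 ± 81.0 and Mrps22 from 807.9 ± 123.5 to 1026 ± 62. Without control 4 and mutant 1 the count was 7 (9.72%, against 4.01% of all rows and 6.87% of those above the noise limit), next to 10.3% of the cytosolic set in the same fit. Leaving out 1 mouse gave 2 to 7, with a move of more than 1.5 times without control 3, control 4, control 6 or mutant 3.

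Of 12 MYC, mTORC1 and S6 kinase genes none was called by limma, with 1 higher and 2 lower at an unadjusted p below 0.05. The higher was Pdcd4 (log2 difference 0.26) and the lower were Tsc1 (-0.12) and Tsc2 (-0.23). The list mixes activators with inhibitors, so its counts by direction and its median do not describe the activity of a pathway. Myc, Mycn and Rps6kb1 had control and mutant means inside the noise limit. Among 16 genes of the p53 response, which can be set off by unbalanced ribosomal proteins, 3 fell and none rose (18.8%, against 4.48% of all rows called lower). At an unadjusted p below 0.05, 2 were higher and 5 lower. Of the 16 differences 6 lay above 0 and 10 below, with a median of -0.069. Without control 4 and mutant 1, 4 fell, and leaving out 1 mouse gave 0 to 4, moving by more than 1.5 times without control 3, 5 or 6 or mutant 1, 2, 3, 5 or 6. Mdm2, the ubiquitin ligase of p53, fell from 1095 ± 105 to 927.4 ± 64.2 (adjusted p = 0.0479), Bbc3, a pro-apoptotic gene, from 111.2 ± 19.8 to 77.9 ± 15.7, and Gdf15, a stress cytokine, from 179.7 ± 32.1 to 103.9 ± 42.0. Trp53 and Cdkn1a had differences above 0 (0.24 and 0.057) and were not called (limma adjusted p = 0.225 and 0.726). Of 20 cell cycle genes 5 rose (25%, against 4.71% of all rows) and 1 fell (5%, against 4.48%), with a median difference of 0.26. The count of higher genes was 3 without control 4 and mutant 1, 2 without background correction and 2 to 7 leaving out 1 mouse, moving by more than 1.5 times for all mice except control 2, control 4 and mutants 2, 4 and 6. Birc5 and Plk1, mitotic genes, rose from 549.4 ± 83.8 to 898.8 ± 138.7 and from 464.7 ± 94.1 to 653.4 ± 58.4, and Cdk1 (listed as Cdc2a) from 253.9 ± 46.6 to 346.6 ± 50.8. The licensing gene Mcm2 fell from 1001 ± 79 to 758.9 ± 109.0. Mcm3, Mcm4, Mcm5, Mcm6 and Mcm7 went the other way, with log2 differences of 0.16 to 0.35, and were not called. In 3 of the 20 cell cycle genes both means lay within the noise limit.

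**Figure D5:**
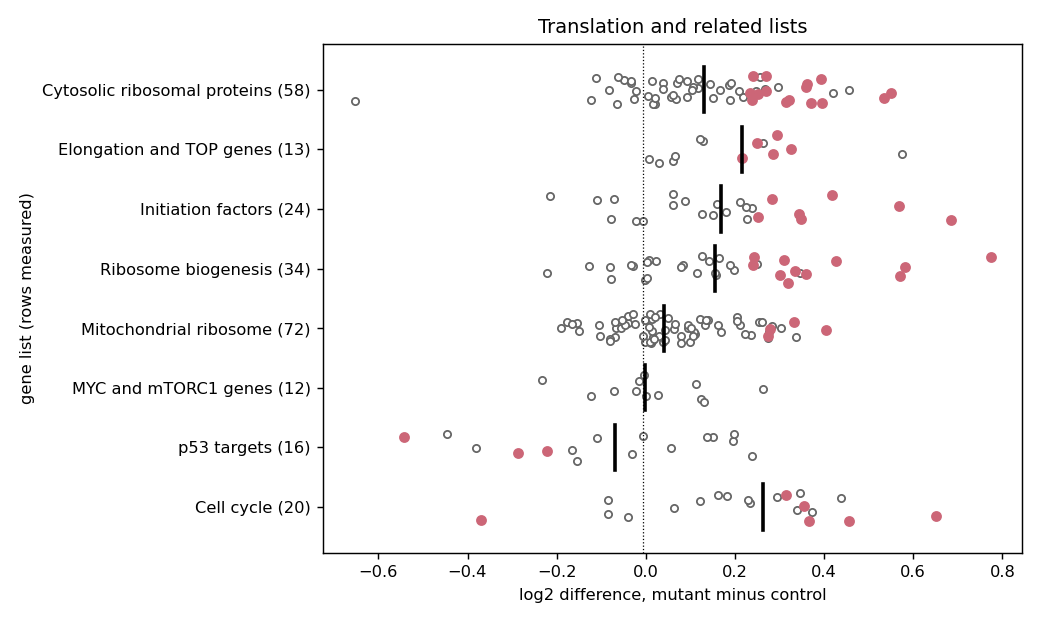
Log2 difference, mutant minus control, of each row of the ribosomal protein set and of 7 related lists, with filled points for rows past the limma threshold, thick bars for the list medians and a dotted line for the median of all rows (points are spread vertically for legibility). The medians of cytosolic ribosomal proteins (0.13), elongation (0.22), initiation (0.17), biogenesis (0.16) and cell cycle genes (0.26) lie to the right of the dotted line, those of the mitochondrial ribosome (0.040) and of MYC and mTORC1 genes (-0.0016) close to it. The median of p53 targets (-0.069) lies to the left of it.

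Markers of cell types also differed between the groups, and their part in the ribosomal protein result was not tested. All shares below stand against 4.71% of all rows called higher and 4.48% lower. Of 11 epithelial genes 3 rose (27.3%), namely Krt19, Cldn3 and Elf3, and none fell. Of the 11 differences 6 lay above 0 and 5 below, with a median of 0.041. Krt18 was lower at an unadjusted p below 0.05 (1738 ± 291 and 1344 ± 216, limma adjusted p = 0.086). Summed intensities of the list were 32413 to 39553 in controls and 37173 to 40841 in mutants, with Fabp1 and Fabp2 within the noise limit. Of 10 neutrophil genes 5 rose (50%) and none fell, with sums of 1204 to 1888 and of 3451 to 11900, and Mmp8, Mpo and Csf3r within the limit. S100a8 rose from 130.6 ± 41.8 to 5650 ± 2325. Mmp9, the brightest of the 10 in controls, was lower in value (1144 ± 264 and 770 ± 243, limma adjusted p = 0.129). At an unadjusted p below 0.05, 5 neutrophil genes were higher and 1 lower. Of 8 red cell genes 3 fell (37.5%) and none rose, Hba-a1 from 23508 ± 3798 to 15502 ± 3021, with sums of 20811 to 32387 and of 10739 to 20393 and Epb4.2 within the limit. Of 8 smooth muscle genes 1 rose (12.5%), Cnn1, with sums of 25500 to 39598 and of 34105 to 47715. None of 13 lymphocyte genes was called (none at an unadjusted p below 0.05 either), with sums of 254.2 to 941.5 and of 281.9 to 713.2 and 7 genes within the limit, among them Cd4, Cd8a, Ms4a1 and Ptprc. None of 18 acinar genes was called (limma, 1 lower at an unadjusted p below 0.05), with sums of 2836 to 107844 and of 4177 to 62406, and Pnlip and Pla2g1b within the limit. Without control 4 and mutant 1, 2 epithelial genes were higher and 1 lower, 1 acinar gene was higher and 2 lower, and the counts were as before for the neutrophil, red cell, smooth muscle and lymphocyte lists. The smooth muscle count ran from 0 to 2 leaving out 1 mouse and moved for all mice except control 4, mutant 1 and mutant 5.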

How the data were processed

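The deposited values are intensities on a linear scale, 1 per gene symbol and mouse (12 mice, 18090 rows). GenomeStudio and Partek are the tools listed in the submitters' processing notes, without their versions or roles. The deposited values show background subtraction (22.5% below 0) and nearly equal distributions (medians 41.8 to 43.4). How probes of a gene were combined, and the array version, are not given in the sources used here. The headings of another table's 24 value columns match no label, and these columns were left out.

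The intensities were passed through normexp (offset 50), quantile normalized, put on the log2 scale and fitted with limma 3.58.1 in R 4.3.3 (lmFit and eBayes, group only, two-sided, Benjamini-Hochberg over all rows). The offset shrinks the differences of dim rows, and quantile normalization hides a shift of all rows together. The number of mice limits the precision. The labels call the samples biological replicates.

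The members and the 14 gene lists were chosen with earlier results of these data known, so no list was tested as a set and no p was adjusted over a list. The lists cover ribosomal paralogs, elongation, initiation, biogenesis, the mitochondrial ribosome, MYC and mTORC1 genes, p53 targets, the cell cycle, and acinar, lymphocyte, neutrophil, erythroid, smooth muscle and epithelial markers. Named were up to 12 members past the threshold in each direction, 22 members of known role where they had a row (7, Rplp0, Rpl5, Rpl10, Rpl10l, Rpl11, Rpl32 and Rps27, are not analysed here), members within the noise limit, and up to 3 called genes per list. For some members no values are reported here. The fit was run on simulated data with independent noise in each row and no shift shared by the rows of a mouse. That run does not bear on joint shifts of the members. Alternatives were no background correction, an offset of 16, no second quantile step, median scaling on rows outside the set, dim rows left out, trend and robust variances, array weights, a replicate block, leaving out control 4 and mutant 1, and leaving out each mouse. The mean of 1000 used for bright rows was chosen after the data were seen.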

Additional observations from a re-analysis of the deposited data

Results flagged for a closer look

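Among 44 groups of 6 values (22 named rows above the noise limit, both groups), 2 held a mouse whose gap to its nearest neighbour exceeded Dixon's 95% critical value, where chance gives about 1 in 20. For Rps3, control 2 read 5827.2 against 5074.3 in the next control. For Rpl12, control 1 read 9373 against 7063.8 in the next control. Both lie on the side of the mutants.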

How the results depend on the processing

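Over 21 alternatives every call among the 58 members was higher in mutants, and none reversed. The count of 15 (7 large, 8 small) was 8 (4 and 4) without background correction, 6 (4 and 2) without control 4 and mutant 1, and 7 to 19 (large 4 to 10, small 3 to 9) leaving out 1 mouse. It was below 10, and so more than 1.5 times lower, without control 2 (8), control 5 (7), control 6 (9), mutant 3 (7) or mutant 5 (8). With an offset of 16 the small subunit had 3 calls. Called higher were 13.8% of members against 3.5% of all rows without background correction, and 17.2% against 4.27% with an offset of 16. Without control 4 and mutant 1 the shares were 10.3% and 4.01%, and in the main fit 25.9% and 4.71%. Of the 15 called members, Rps3, Rps6, Rpl21, Rpl27 and Rpl30 (5) kept the call in all 21 alternatives, 7 in all fits leaving out 1 mouse, and 6 without control 4 and mutant 1. All rows gave 1247 to 1694 calls leaving out 1 mouse, with 655 to 875 higher, against 852 higher in the main fit. The median difference of the members stayed between 0.12 and 0.17, of the large subunit between 0.11 and 0.14 and of the small between 0.13 and 0.20, leaving out 1 mouse. The large minus small difference went from -0.068 to 0.013, crossing 0 without control 6. The cause of these changes was not tested. Titles share replicate numbers 1 to 6, which did not pair the mice (correlations of same-numbered mice -0.11 to 0.27, 2 of 6 controls closest to their own number). With the number as a replicate block 12 members were called, 5 of them of the small subunit. That was 20.7% of members, against 4.74% of all rows called higher. Rows near the top of the scale and rows within the noise limit limit what can be seen.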
